A study of Schizosaccharomyces pombe with 6 samples.

Results

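The shared response of 2 fission yeast strains that each lack a subunit of the TRAMP complex was described by setting their 4 arrays, taken as 1 group, against the 2 arrays of wild type. A feature, which is an annotated gene or noncoding RNA with 1 log2 value per array, was kept where all 4 mutant arrays fell to one side of both wild-type arrays. Of 5481 features, 2138 (39%) met this condition once cid14 and air1 had been left out. In 1238 of them (22.6% of all features) the mutants were higher than wild type, and in 900 (16.4%) they were lower.

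TRAMP is a nuclear complex of a noncanonical poly(A) polymerase, a zinc-knuckle RNA-binding protein and a helicase. It adds short adenosine tails to nuclear RNAs and hands them to the exosome, the complex that trims or degrades RNA from the 3′ end. In fission yeast Cid14 is the polymerase and Air1 the zinc-knuckle protein, and Cid14 is known for its part in ribosomal RNA processing and in silencing transcripts of heterochromatin.

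The air1delta strain (SPB103) lacks air1, the cid14delta strain (SPB101) lacks cid14, and the wild-type strain (SPB76) carries neither deletion. Each strain was hybridised on 2 Affymetrix tiling arrays from cultures labelled as biological replicates, and all 3 grew in rich YES medium at 30 °C to an optical density of 0.5. The labels give no mating type, no deletion marker and no second clone for a strain. The target was double-stranded, so a gene and an antisense or overlapping transcript could not be told apart.

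The deleted genes matched the labels. In air1delta, air1 read 4.42 and 4.90 and cid14 read 8.996 and 8.95. In cid14delta, air1 read 10.46 and 10.64 and cid14 read 3.91 and 3.63. The highest reading of a deleted gene in its own strain, 4.90, is called the deletion floor here, and a value at or below it gives only a bound. Array medians were 9.27 and 9.29 in air1delta, 9.27 and 9.28 in cid14delta, and 9.21 and 9.21 in wild type. Values over all arrays ran from 2.75 to 14.8. Per the array identifiers in the labels, wild type and cid14delta lay in 1 array series and shared culture days by replicate number, while air1delta lay in another series, on other days, with no wild-type array. Array series and the deletion of air1 therefore cannot be told apart.

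Most of the shared differences were small. The median log2 difference was 0.31 among the higher features and -0.24 among the lower, and 34.4% of the higher and 52.9% of the lower features differed by under 0.25. A log2 difference of at least 1 was found in 23 higher and 11 lower features. At the edge of the condition, the lowest mutant array of mak2 was above the highest wild-type array by 6.17e-05 and that of rrp2 by 0.000155, while vps25 and bmc1 stayed outside because 1 mutant array tied with 1 wild-type array. The air1delta mean was the farther from wild type in 819 (66.2%) of the higher and 515 (57.2%) of the lower features. Of the wild-type arrays, the first lay nearer to the mutants in 799 of the higher and 552 of the lower features.

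A limma fit of the 4 mutant against the 2 wild-type arrays, with Benjamini-Hochberg adjustment over all features, called 164 of 5481 features (2.99%) at an adjusted p under 0.05. Of these, 111 (2.03%) rose and 53 (0.967%) fell, with medians of 0.61 and -0.52 on the log2 scale. All 164 were among the 2138, but the condition and the fit use the same arrays, so this count lends the condition no support. Standard errors of the pooled log2 change had a median of 0.10. Replicate number was also entered as a block (the replicate block). It pairs wild type and cid14delta by culture day, and it pairs air1delta with them by number although the air1delta arrays lay on other days. With it 1 feature stayed called, the rise of SPAC5H10.04. Leaving out 1 array at a time left 0 calls without either air1delta array, 3 without either cid14delta array, 5 without wild type 1 and 1 without wild type 2, so the calls below rest on all 6 arrays.

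**Figure D1:**
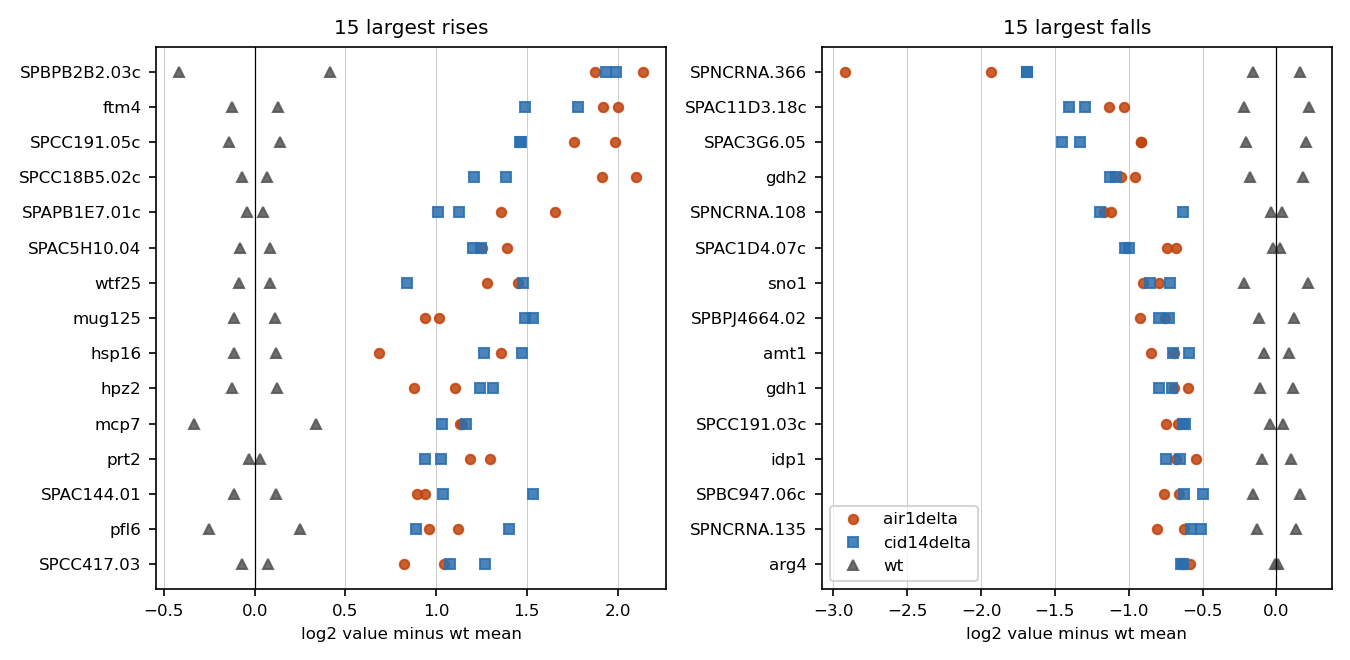
Log2 value of each array minus the wild-type mean (x axis) for the 15 largest rises (left) and the 15 largest falls (right) among called features, with air1delta as circles, cid14delta as squares and wt as triangles. Every mutant point lies on one side of both wt points, as the condition requires, and the spread among mutant arrays is widest for SPNCRNA.366 on the right.

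The 15 largest rises came from genes of unlike kinds, several of them carrying only a systematic ID. SPBPB2B2.03c had log2 values of 7.39 and 7.12 in air1delta, 7.24 and 7.19 in cid14delta, and 4.83 and 5.67 in wild type. Its rise of 1.99 ± 0.22 (log2 change ± SE, 4 mutant and 2 wild-type arrays throughout, adjusted p = 0.026) is computed from the values as deposited. The mutant arrays lay close together, and 1 wild-type array lay below the deletion floor, so the rise is given as at least 1.95 log2 units, or at least 3.87-fold, with that array raised to the floor. The gene ftm4 read 12.31 and 12.23 in air1delta, 11.80 and 12.09 in cid14delta, and 10.18 and 10.43 in wild type, a rise of 1.80 ± 0.16 (adjusted p = 0.026). It lies among the outermost genes of chromosome I. SPCC191.05c had 9.19 and 9.42 in air1delta, 8.90 and 8.89 in cid14delta, and 7.29 and 7.57 in wild type, a rise of 1.67 ± 0.17 (adjusted p = 0.026). For all 3 genes every mutant array stood more than 1 log2 unit above the higher wild-type array.

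The pseudogene SPCC18B5.02c rose by 1.65 ± 0.26 (adjusted p = 0.040). It read 11.22 and 11.40 in air1delta, 10.69 and 10.51 in cid14delta, and 9.23 and 9.37 in wild type, so air1delta was the higher mutant. SPAC5H10.04 had 8.94 and 8.80 in air1delta, 8.80 and 8.75 in cid14delta, and 7.63 and 7.47 in wild type. Its rise of 1.27 ± 0.09 had the smallest adjusted p of the 15, 0.017, and stayed called in 10 of 14 alternatives. SPAPB1E7.01c rose by 1.29 ± 0.18 (adjusted p = 0.036).

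Among rises with a known role, hsp16, a small heat shock chaperone, read 10.69 and 10.02 in air1delta, 10.60 and 10.81 in cid14delta, and 9.22 and 9.45 in wild type. It rose by 1.19 ± 0.22 (adjusted p = 0.048), and its air1delta arrays differed by more than its cid14delta arrays did. Values for mcp7, a meiosis-specific coiled-coil protein, were 8.26 and 8.25 in air1delta, 8.16 and 8.29 in cid14delta, and 7.46 and 6.79 in wild type. Its rise was 1.12 ± 0.18 (adjusted p = 0.040), and here the wild-type arrays differed most. The noncoding RNA prt2 read 10.49 and 10.38 in air1delta, 10.13 and 10.22 in cid14delta, and 9.17 and 9.22 in wild type, a rise of 1.11 ± 0.11 (adjusted p = 0.026).

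Further rises were 1.26 ± 0.19 for wtf25, a member of a family of meiotic drive genes, and 1.25 ± 0.20 for mug125, named for upregulation in meiosis. The flocculin gene pfl6 rose by 1.09 ± 0.19. SPAC144.01 rose by 1.10 ± 0.19 and SPCC417.03 by 1.05 ± 0.13. The wild-type mean of hpz2, 4.05, lay below the deletion floor, so its rise is given as at least 0.28 log2 units, or at least 1.22-fold. Near-identical copies of wtf and flocculin genes may share probe signal, and their values are uncertain to that extent.

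The largest fall was that of SPNCRNA.366, a long noncoding RNA. It read 4.63 and 3.65 in air1delta, 4.88 and 4.88 in cid14delta, and 6.73 and 6.41 in wild type (adjusted p = 0.044). All 4 mutant arrays were at or below the deletion floor, so the fall is at least 3.18-fold. SPAC11D3.18c fell by 1.22 ± 0.16 (adjusted p = 0.034), with 7.80 and 7.90 in air1delta, 7.53 and 7.64 in cid14delta, and 8.71 and 9.15 in wild type. SPAC3G6.05 fell by 1.15 ± 0.20 (adjusted p = 0.044). SPNCRNA.108 fell by 1.03 ± 0.17 (adjusted p = 0.041). For SPAC1D4.07c, SPAC1687.23c and SPNCRNA.381 both group means were at or below the deletion floor, and no fold is given although the fit called them.

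Several of the named falls were in genes of nitrogen and amino acid metabolism. Both glutamate dehydrogenase genes, whose enzymes join ammonium and carbon metabolism, were lower. Values of gdh2 were 11.51 and 11.61 in air1delta, 11.44 and 11.48 in cid14delta, and 12.38 and 12.74 in wild type, a fall of 1.06 ± 0.11 (adjusted p = 0.026), or 2.08-fold. The values of gdh1 were 12.62 and 12.53 in air1delta, 12.51 and 12.43 in cid14delta, and 13.11 and 13.33 in wild type, a fall of 0.70 ± 0.09 (adjusted p = 0.034). The mutant arrays of gdh2 spanned less than its wild-type arrays did. The ammonium transporter gene amt1 read 11.12 and 11.28 in air1delta, 11.38 and 11.27 in cid14delta, and 11.89 and 12.06 in wild type, a fall of 0.71 ± 0.09 (adjusted p = 0.034).

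Of 14 measured genes of nitrogen use, 10 (71.4%) were lower in all 4 mutant arrays and 1 was higher, against 16.4% and 22.6% of all features. The list lay high, at a median wild-type level of 11.4, and in the highest of 5 level classes 31.8% of features were lower and 14.1% higher. The fit called the falls of gdh2, amt1 and gdh1, and the list had a median log2 difference of -0.25 beside 0.03 for all features, and of -0.39 after quantile normalization of the 6 arrays. Taken by mutant, the list median was -0.28 in air1delta and -0.28 in cid14delta, each against the same 2 wild-type arrays. The vacuolar transporter gene fnx2 differed by -0.71 ± 0.22 without passing the test (adjusted p = 0.107), with 8.51 and 8.50 in air1delta, 9.14 and 9.04 in cid14delta, and 9.38 and 9.64 in wild type.

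Among 62 genes of amino acid and nucleotide biosynthesis, 37 (59.7%) were lower in every mutant array and 4 were higher, with a median of -0.19. Calls were the falls of arg4, arg12, lys1 and ade10 and the rise of lys7. The gene arg4, for a carbamoyl phosphate synthase subunit of arginine synthesis, read 12.91 and 12.86 in air1delta, 12.85 and 12.86 in cid14delta, and 13.49 and 13.50 in wild type. It fell by 0.62 ± 0.06 (adjusted p = 0.026), and replicate arrays hardly differed. For arg12, argininosuccinate synthase, the fall was 0.62 ± 0.11 (adjusted p = 0.047), and for lys1, of lysine synthesis, 0.59 ± 0.10 (adjusted p = 0.041). The purine synthesis gene ade10 fell by 0.37 ± 0.07. In the opposite direction, lys7 rose by 0.55 ± 0.08 (adjusted p = 0.036), with 8.42 and 8.40 in air1delta, 8.46 and 8.598 in cid14delta, and 7.91 and 7.93 in wild type. Genes of linked reactions that fell included idp1, isocitrate dehydrogenase, by 0.66 ± 0.09 (adjusted p = 0.036), and put2, of proline breakdown, by 0.40 ± 0.07 (adjusted p = 0.048).

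**Figure D2:**
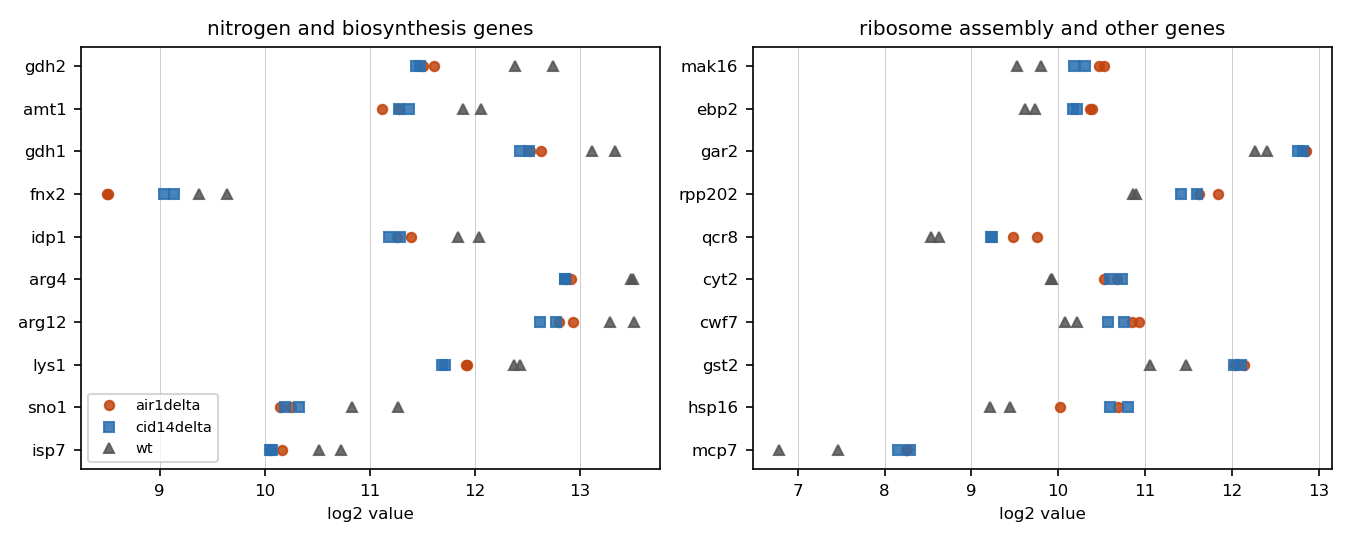
Log2 value (x axis) on each array for named genes of nitrogen use and biosynthesis (left) and of ribosome assembly, respiration, splicing, stress and meiosis (right), with air1delta as circles, cid14delta as squares and wt as triangles. Genes were picked from the shared features, lower ones for the left panel and higher ones for the right, so the sides follow from that choice. All mutant points lie below both wt points on the left, as for gdh2 and arg4, and above both on the right, as for mak16 and mcp7. The called rise of lys7, also a biosynthesis gene, is not shown.

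Most genes that build the large ribosomal subunit were higher in every mutant array. Of 33 measured, 25 (75.8%) were higher in this way and 0 were lower, all 33 differences of means were positive, and the median was 0.29. Called rises were mak16, ebp2, rpf1, nip7 and spb1, all for assembly factors of that subunit. The gene mak16 read 10.47 and 10.52 in air1delta, 10.18 and 10.31 in cid14delta, and 9.81 and 9.52 in wild type, a rise of 0.70 ± 0.13 (adjusted p = 0.048). Values of ebp2 were 10.36 and 10.39 in air1delta, 10.17 and 10.22 in cid14delta, and 9.74 and 9.62 in wild type, a rise of 0.61 ± 0.09 (adjusted p = 0.039). Both genes were slightly higher in air1delta than in cid14delta, by differences that were not called. By mutant, the list median was 0.25 in air1delta and 0.27 in cid14delta.

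For the small subunit processome and other nucleolar factors, 18 of 29 (62.1%) were higher in every mutant array and 0 were lower, with a median of 0.19. After centring, in which the median of each array is subtracted, 13 were higher and 1 lower, with a median of 0.12. The fit called gar2, a nucleolin-like protein, and imp4, of the processome. Values of gar2 were 12.85 and 12.84 in air1delta, 12.82 and 12.77 in cid14delta, and 12.40 and 12.27 in wild type, a rise of 0.48 ± 0.07 (adjusted p = 0.036). The rise of imp4 was 0.43 ± 0.08 (adjusted p = 0.046). Genes for the ribosomal proteins themselves did not share this direction. Their median wild-type level was 12.9, in the highest of 5 level classes, where 14.1% of features were higher and 31.8% lower. Of 134, 7 (5.22%) were higher and 32 (23.9%) lower in every mutant array, both below the shares of that class. The list median of -0.07 became 0.01 under quantile normalization. Their only call was rpp202, an acidic stalk protein, at 11.84 and 11.62 in air1delta, 11.41 and 11.59 in cid14delta, and 10.90 and 10.86 in wild type, a rise of 0.74 ± 0.12 (adjusted p = 0.041). Many ribosomal proteins are encoded by near-identical gene copies, whose values may be mixed.

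Mitochondrial genes were more often higher than lower. Of 50 genes for the respiratory chain and ATP synthase, 21 (42%) were higher and 1 lower in every mutant array, with a median of 0.19, and the fit called qcr8, cyt2, qcr6, cox13 and qcr7. Values for qcr8, a subunit of complex III, were 9.76 and 9.48 in air1delta, 9.24 and 9.23 in cid14delta, and 8.63 and 8.54 in wild type, a rise of 0.84 ± 0.16 (adjusted p = 0.050). The gene cyt2, for the enzyme that attaches heme to cytochrome c1, read 10.67 and 10.53 in air1delta, 10.74 and 10.60 in cid14delta, and 9.92 and 9.93 in wild type. It rose by 0.71 ± 0.08 (adjusted p = 0.026), and the 2 mutants overlapped. Of 60 mitochondrial ribosomal protein genes, 22 (36.7%) were higher and 3 lower in every mutant array, with a median of 0.14 and 1 call, mrp11 (0.39 ± 0.06, adjusted p = 0.041). With centring the mitochondrial ribosomal counts were 13 higher and 5 lower with a median of 0.07, and the respiratory counts were 16 and 3 with 0.12.

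Of 49 spliceosome genes named cwf, prp or usp, 28 (57.1%) were higher and 2 lower in every mutant array, with a median of 0.22. The only call was cwf7, a splicing factor, at 10.85 and 10.93 in air1delta, 10.58 and 10.76 in cid14delta, and 10.21 and 10.08 in wild type, a rise of 0.63 ± 0.11 (adjusted p = 0.045). The median was 0.29 in air1delta and 0.13 in cid14delta. In usp103, which lies next to the deleted air1 in the reference gene order, the values were 8.01 and 8.13 in air1delta, 7.22 and 7.19 in cid14delta, and 7.02 and 6.89 in wild type, and the mutants differed by 0.86 (adjusted p = 0.013).

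**Figure D3:**
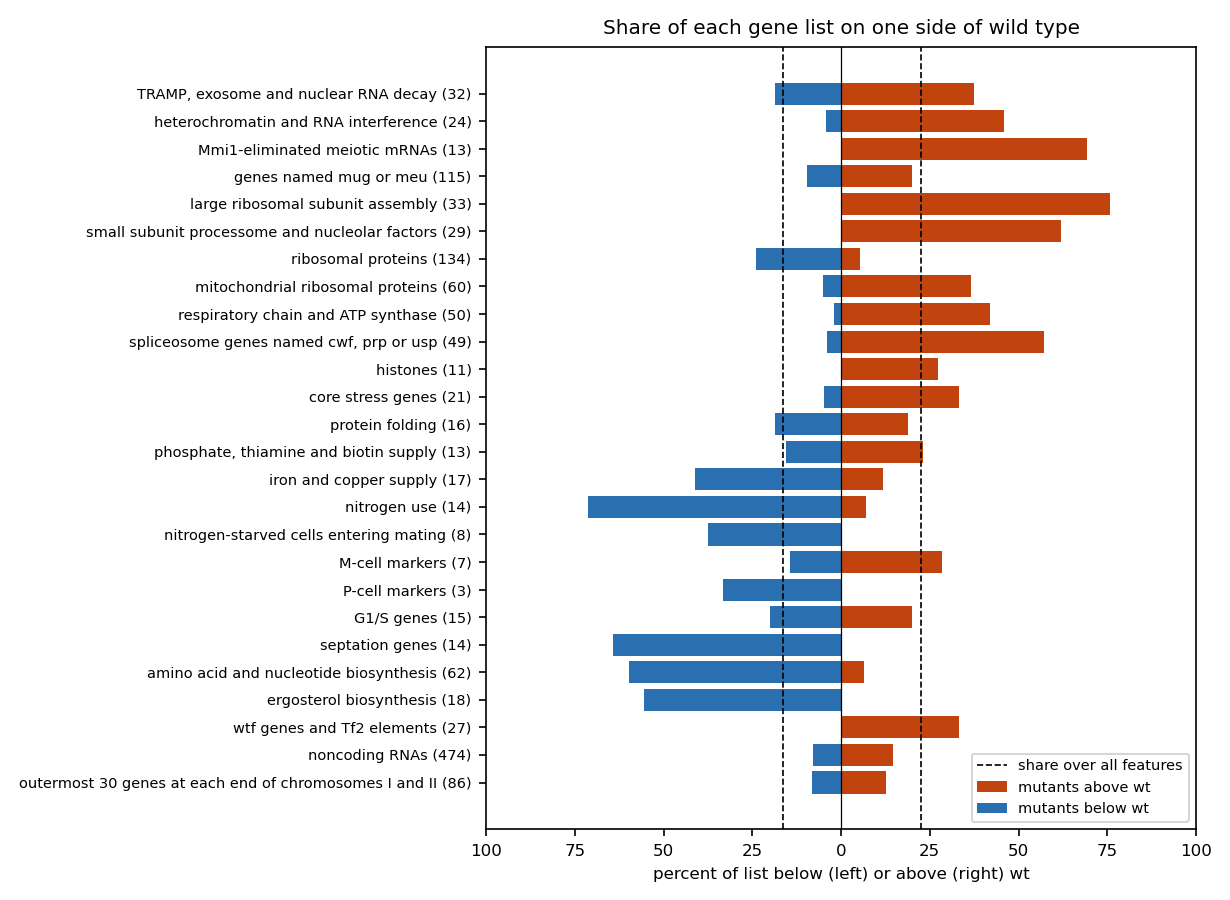
Percent of the measured genes of each list (number in brackets) for which all 4 mutant arrays lay above both wt arrays (bars to the right) or below both (bars to the left), with dashed lines at the shares over all features, 22.6% and 16.4%. Ribosome assembly reaches 75.8% to the right and nitrogen use 71.4% to the left.

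The RNA decay machinery to which TRAMP belongs gave no call in the pooled fit, and none with the replicate block. Strain as a factor of 3, which takes the difference between the mutants out of the spread, called 9 rises and 1 fall in this list. Over all 5481 features that fit called 728 rises and 429 falls. Of 32 genes for TRAMP, the exosome and nuclear RNA decay, without the deleted pair, 12 (37.5%) were higher and 6 (18.8%) lower in every mutant array, with a median of 0.15. With centring 8 were higher and 7 lower with a median of 0.08, and under quantile normalization 10 and 7 with 0.10. The largest shared difference was in rrp41, an exosome core subunit, at 0.58 ± 0.22 (adjusted p = 0.169), with 9.35 and 9.35 in air1delta, 8.77 and 8.82 in cid14delta, and 8.68 and 8.31 in wild type. The nuclear exonuclease gene rrp6 came closest to the threshold, at 0.49 ± 0.10 (adjusted p = 0.053). It read 8.45 and 8.37 in air1delta, 8.19 and 8.25 in cid14delta, and 7.91 and 7.74 in wild type. For csl4, an exosome cap subunit, the difference of 0.46 ± 0.26 (adjusted p = 0.322) came mainly from air1delta, which stood above cid14delta by 0.72 (adjusted p = 0.017).

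Of 24 genes for heterochromatin and RNA interference, 11 (45.8%) were higher and 1 lower in every mutant array. This split did not hold under other scalings, with 5 higher and 6 lower both with centring and under quantile normalization, and the median of 0.12 became 0.06 and -0.01. The only call was dsh1, of the RNA interference pathway, at 8.96 and 8.98 in air1delta, 8.99 and 9.16 in cid14delta, and 8.52 and 8.59 in wild type, a rise of 0.47 ± 0.08 (adjusted p = 0.045). The histone deacetylase gene sir2 differed by 0.49 ± 0.10 (adjusted p = 0.057).

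Meiotic transcripts are known in fission yeast to be removed from growing cells by Mmi1 together with the nuclear exosome. Of 13 such mRNAs, 9 (69.2%) were higher and 0 lower in every mutant array, with a median of 0.28, and mcp7 was the only call. With centring the counts were 8 and 0, and under quantile normalization 5 and 1 with a median of 0.16. By mutant the list median was 0.34 in air1delta and 0.37 in cid14delta. The list lay low, with median log2 values of 5.67 and 5.78 on the wild-type arrays. Of its higher genes, num1 and mcp3 read 4.79 and 4.84 on the second wild-type array, below the deletion floor. The gene rec10, for a protein of meiotic chromosome axes, had 6.64 and 6.95 in air1delta, 7.34 and 7.39 in cid14delta, and 6.53 and 6.39 in wild type, a difference of 0.62 ± 0.22 (adjusted p = 0.148). Here cid14delta was farther from wild type, with a called difference of -0.57 for air1delta minus cid14delta (adjusted p = 0.043). Of 115 genes with mug or meu names, a set defined by upregulation in meiosis, 23 (20%) were higher and 11 (9.57%) lower, near or below the shares over all features. With centring 15 were higher and 15 lower, the median of 0.07 became -0.01 under quantile normalization with 12 higher and 16 lower, and the calls were the rises of mug125 and mug177.

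Signs of mating and nitrogen starvation were set beside these meiotic genes. Of 8 genes of nitrogen-starved cells entering mating, 0 were higher and 3 lower, with isp7 falling by 0.54 ± 0.08 (adjusted p = 0.040). The median of that list on single arrays was 8.81 and 8.99 in air1delta, 8.68 and 8.86 in cid14delta, and 8.86 and 9.03 in wild type. M-cell markers had list medians of 7.60 and 7.69 in air1delta, 7.50 and 7.63 in cid14delta, and 7.29 and 7.58 in wild type, and P-cell markers had 8.08 and 8.004 in air1delta, 7.91 and 7.96 in cid14delta, and 8.14 and 8.08 in wild type. Of 7 M-cell markers 2 (28.6%) were higher and 1 (14.3%) lower, and of 3 P-cell markers 0 were higher and 1 (33.3%) lower. Over all features the shares were 22.6% and 16.4%. None of the 10 markers passed the test, and none was at the deletion floor on all arrays. The part of cell type in the meiotic differences was not tested. In bulk RNA, fewer cells of a type and less RNA per cell cannot be told apart.

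Of 17 genes for iron and copper supply, 7 (41.2%) were lower and 2 higher in every mutant array, with a median of -0.44. Only isu1, the scaffold for iron-sulfur clusters, passed, falling by 0.45 ± 0.08 (adjusted p = 0.048). The iron permease gene fip1 read 11.69 and 11.69 in air1delta, 11.81 and 11.39 in cid14delta, and 12.23 and 13.40 in wild type. Its difference of -1.17 ± 0.31 did not pass (adjusted p = 0.079), and the wild-type arrays differed from each other by about as much. Of 13 phosphate, thiamine and biotin genes, 3 (23.1%) were higher, 2 (15.4%) lower and 0 called, near the 22.6% and 16.4% of all features. Among these genes the biotin transporter gene vht1 differed by -1.17 ± 0.24 (adjusted p = 0.055).

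Septation genes, which act in cell separation, were lower in 9 of 14 (64.3%) and higher in 0, with a median of -0.11 and 0 called. The glucanase gene eng1 read 11.29 and 11.34 in air1delta, 11.17 and 11.13 in cid14delta, and 11.55 and 11.70 in wild type, a difference of -0.39 ± 0.09 (adjusted p = 0.063). Ergosterol synthesis genes were lower in 10 of 18 (55.6%) and higher in 0, with a median of -0.13 and 0 called. The squalene epoxidase gene erg1 differed by -0.51 ± 0.10 (adjusted p = 0.052). With centring the septation median was -0.18 and the ergosterol median -0.20, and under quantile normalization the septation counts were 0 higher and 6 lower with a median of -0.07. Of 15 G1/S genes, 3 (20%) were higher, 3 (20%) lower and 0 called, near the shares over all features, 22.6% and 16.4%. Differences were positive in 5 of the 15, and 3 were higher and 6 lower with centring.

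Stress and chaperone genes gave single calls. Of 21 core stress genes, 7 (33.3%) were higher and 1 lower, with a median of 0.18 that was 0.11 with centring. The call was gst2, a glutathione S-transferase, at 12.04 and 12.14 in air1delta, 12.10 and 12.03 in cid14delta, and 11.06 and 11.48 in wild type, a rise of 0.81 ± 0.12 (adjusted p = 0.039). Of 16 protein folding genes, 3 (18.8%) were higher and 3 (18.8%) lower, near the shares over all features, 22.6% and 16.4%. Among these genes hsp16 was the only call, and the list median of 0.06 became -0.01 with each array centred on its median. Histone genes had 3 of 11 (27.3%) higher, near the 22.6% of all features, 0 lower and 0 called. The histone median of 0.04 became -0.03 with centring.

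Repeated, chromosome-end and noncoding features were read as separate lists. Of 27 wtf genes and Tf2 retrotransposons, 9 (33.3%) were higher and 0 lower, and wtf25 was the only call. The list median of 0.25 became 0.12 under quantile normalization, with 6 higher and 0 lower, and by mutant it was 0.47 in air1delta and 0.08 in cid14delta. Of the 86 measured genes among the outermost 30 at each end of chromosomes I and II, 11 (12.8%) were higher and 7 (8.14%) lower, below the shares over all features, and ftm4 and pfl6 were called. That balance turned to 9 higher and 13 lower with centring and 11 and 13 under quantile normalization, with medians of 0.03 and 0.03 in place of 0.10. Of 474 noncoding RNA IDs, 69 (14.6%) were higher and 38 (8.02%) lower, both below the shares over all features. The fit called 5 rises and 4 falls among them, where 2.03% and 0.967% of all features were called as rises and falls. In 312 of the 474 the mean was at or below the deletion floor. The noncoding counts turned to 42 higher and 76 lower with centring and were 53 and 49 under quantile normalization. The noncoding median of 0.01 became -0.06 with centring and -0.01 under quantile normalization, and was 0.11 without features at or below that floor. SPNCRNA.564 rose by 0.72 ± 0.12 (adjusted p = 0.041), with 8.90 and 8.69 in air1delta, 8.51 and 8.56 in cid14delta, and 7.91 and 7.98 in wild type.

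Shared features were spread along the genome. The share of measured genes that were higher was 22.5% on chromosome I, 21.6% on II and 24.3% on III, and the share lower was 16.5%, 17.1% and 15.8%. Protein-coding genes made up 1155 of the 1238 higher and 857 of the 900 lower features, beside 4962 of all 5481 features. In the reference order, 1318 shared features had no neighbour shared in the same direction, and the longest run was 5 lower genes on chromosome III, lat1, efr3, tef101, ugp1 and ent3, none of them called. Of 15 runs of 4 neighbours, 13 were higher. One held SPAC11D3.10, SPAC11D3.11c, hsp3104 and SPAC11D3.14c on chromosome I, in which hsp3104 rose by 0.81 ± 0.09 (adjusted p = 0.027) and SPAC11D3.10 by 0.50 ± 0.09 (adjusted p = 0.050). Another held rad57, whi2, gih35 and ufd2, in which whi2 rose by 0.64 ± 0.12 (adjusted p = 0.048).

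The direction of a shared difference went with the level of the feature. With features cut into 5 equal classes of mean log2 level, lowest to highest, the share higher in every mutant array was 20.1%, 31.7%, 26.1%, 20.9% and 14.1%, and the share lower was 5.74%, 9.22%, 15.1%, 20.3% and 31.8%. Several lists with many lower genes lay high. Their median wild-type level was 11.4 for nitrogen use, 12.1 for amino acid and nucleotide biosynthesis, 11.6 for septation and 11.4 for ergosterol synthesis. The highest class began at 10.9, so its 31.8% is a nearer comparison for these lists than the share over all features. Iron and copper supply, at 10.8, lay in the class below. Among lists with more higher genes, RNA decay (8.88), spliceosome (8.96) and mitochondrial ribosomal genes (9.41) lay in the third class, where 26.1% of features were higher. Heterochromatin and RNA interference genes (8.15) lay in the second, where 31.7% were. Large-subunit assembly (10.3), small-subunit and nucleolar factors (10.1) and respiratory genes (10.1) lay in the fourth, where 20.9% were. Quantile normalization gave 228 higher and 228 lower features in the highest class, in place of 155 and 348. The split of the calls also moved with the scaling. As deposited, 67.7% of calls were rises, and with each array centred on its median 36.1% were, with 83 rises and 147 falls, while quantile normalization left 19 rises and 11 falls. Quantile normalization kept 1581 of the 2138 shared features on the same side, and centring kept 1717.

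Several lists kept their side under both scalings. Large-subunit assembly had 19 higher and 0 lower genes with centring and 23 and 0 under quantile normalization, and nitrogen use had 0 higher and 13 lower with centring and 0 and 11 under quantile normalization. For amino acid and nucleotide biosynthesis the counts were 2 higher and 40 lower with centring and 5 and 29 under quantile normalization. All mutant array medians were above those of wild type, so centring lowers every mutant array against wild type and can only add lower features. For the lists that fell, centring is therefore no check. Ribosomal proteins did not keep theirs, with 3 higher and 63 lower with centring and 20 and 12 under quantile normalization.

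**Figure D4:**
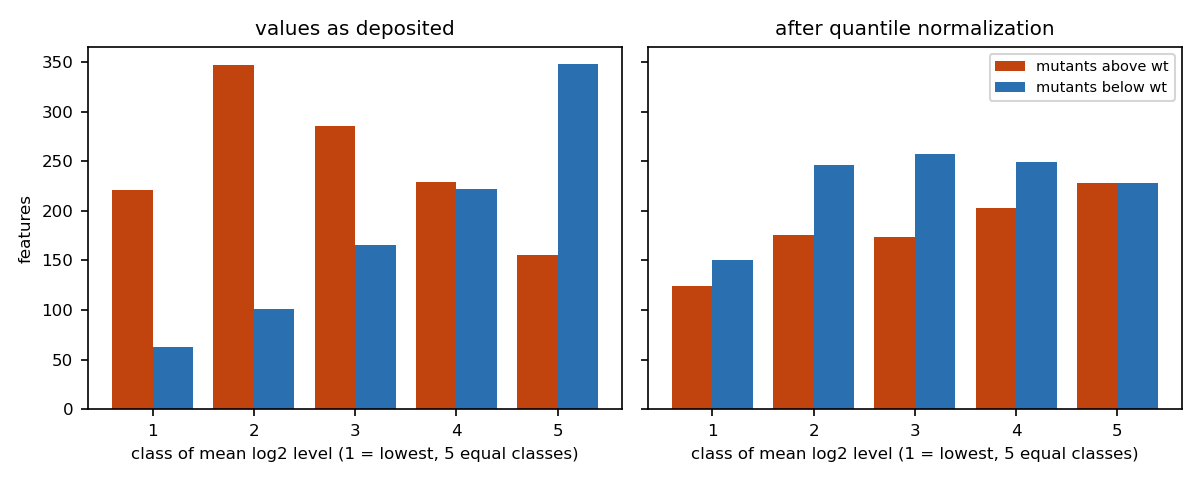
Number of features (y axis) with all 4 mutant arrays above or below both wt arrays, by class of mean log2 level (5 equal classes) over all arrays (x axis, 1 = lowest), from the deposited values (left) and after quantile normalization (right). In the highest class the deposited values give 155 above and 348 below, and quantile normalization gives 228 and 228.

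The mutants were then compared with each other, a contrast that the condition did not use directly. The fit with 3 strains called air1delta minus cid14delta in 547 of 5481 features (9.98%), 301 higher in air1delta (5.49%) and 246 lower (4.49%), and in 154 of the 2138 shared features (7.20%). The condition requires all 4 mutant arrays on one side of wild type, which bounds how far apart the mutants can lie for a small shared difference, so the lower share is a description. Of the 99 higher features with such a difference, air1delta was farther from wild type in 78 and cid14delta in 21, and of the 55 lower ones air1delta was farther in 40 and cid14delta in 15. Of the 164 features called against wild type, 4 (2.44%) differed between mutants, namely SPCC18B5.02c, dph3, mug125 and SPAC1D4.07c. The pooled fit takes the 4 mutant arrays as 1 group and counts a difference between the mutants as spread. Features with such a difference are less likely to be called in it, so the low share does not show that the mutants respond alike. Without the first or the second air1delta array 0 and 1 of the shared features were called, without either cid14delta array 0, and without either wild-type array 128. With the replicate block, 19 were.

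The largest differences between the mutants lay in shared features whose pooled change did not pass the test. This follows in part from the pooled fit, in which a difference between the mutants widens the standard error. That error was 0.63 for aes1 and 0.57 for SPBC1271.07c, beside a median of 0.10 over all features. The gene aes1 read 7.31 and 7.06 in air1delta, 5.36 and 5.38 in cid14delta, and 7.85 and 8.29 in wild type. The mutants differed by 1.81 ± 0.16 (adjusted p = 0.013), and cid14delta was the farther from wild type. SPBC1271.07c showed the same order, with 9.15 and 9.27 in air1delta, 7.58 and 7.53 in cid14delta, and 9.44 and 9.77 in wild type, a difference of 1.66 ± 0.12 (adjusted p = 0.010). So did gud1, guanine deaminase, at 11.31 and 11.31 in air1delta, 10.20 and 10.30 in cid14delta, and 11.42 and 11.74 in wild type, a difference of 1.06 ± 0.11 (adjusted p = 0.017). In these 3 genes the air1delta arrays lay nearer to wild type than the cid14delta arrays did. In the limma fit with 3 strains, air1delta minus wild type passed for aes1 (-0.89, adjusted p = 0.019). It did not pass for SPBC1271.07c (-0.40, adjusted p = 0.062) or gud1 (-0.27, adjusted p = 0.134).

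The gene sqs2 was farther from wild type in air1delta, at 10.37 and 10.21 in air1delta, 9.15 and 9.04 in cid14delta, and 7.95 and 8.07 in wild type, and the mutants differed by 1.19 ± 0.09 (adjusted p = 0.010). SPAC29B12.11c, at 7.59 and 7.55 in air1delta, 8.62 and 8.53 in cid14delta, and 8.69 and 8.71 in wild type, was lower mainly in air1delta (difference -1.003 ± 0.06, adjusted p = 0.010). SPAC22A12.17c was higher mainly in cid14delta, with 8.21 and 8.70 in air1delta, 10.06 and 9.98 in cid14delta, and 7.95 and 8.07 in wild type, a difference of -1.56 ± 0.16 (adjusted p = 0.017). SPBC1289.14 differed by -0.90 ± 0.13 (adjusted p = 0.029), also with cid14delta the higher. Against wild type in the same limma fit, both mutants passed for sqs2. In SPAC29B12.11c cid14delta did not pass (-0.13, adjusted p = 0.242). Nor did air1delta in SPAC22A12.17c (0.45, adjusted p = 0.098) or SPBC1289.14 (0.29, adjusted p = 0.157). All arrays of SPNCRNA.126 lay below the deletion floor, so its difference of -0.85 has no fold.

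**Figure D5:**
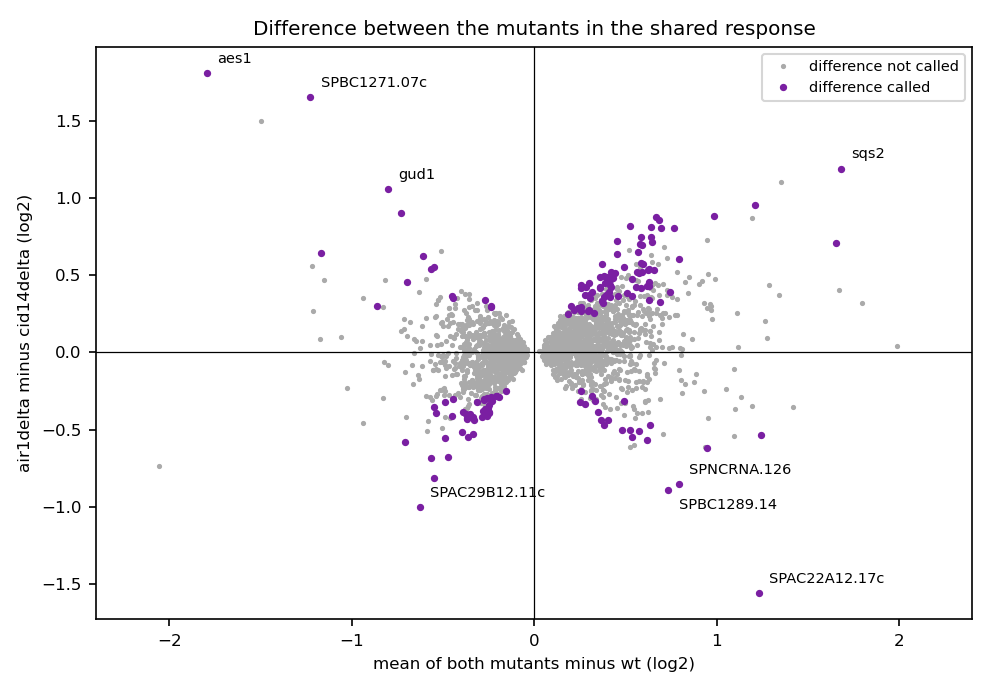
Difference of the mutants, air1delta minus cid14delta (y axis, log2), against the mean of both mutants minus wt (x axis, log2) for the 2138 shared features, with called differences between mutants in purple. The condition leaves the fan-shaped gap around 0, and the 8 labelled features are the largest called differences in each direction.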

How the data were processed

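The authors deposited 1 log2 value per feature and array, for 5483 features on 6 arrays, in 1 table. Their range and near-equal medians are the basis for the log2 scale. The affy package is named in the submitters' processing notes. What it did, how the authors normalized and which build they used is not given in the sources used here. Strains come from the labels, and p-values measure the spread between these arrays. IDs were matched to a RefSeq gene table (ASM294v3), 5357 of them and 20 through a synonym, for names and gene order only.

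The pooled comparison was a two-sided limma 3.58.1 fit in R 4.3.3 with 4 residual and 2.47 prior degrees of freedom. The mutants were compared in a 3-strain fit with 3 residual and 2.51 prior degrees of freedom. Benjamini-Hochberg adjustment ran over all 5483 features, none filtered, and counts leave out cid14 and air1. The fits were tested on simulated data. Precision is limited by having 2 arrays a strain.

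The shared features and the 26 gene lists were chosen with earlier results of these data known, so no list count is independent evidence. The symbols arg82, leu5, trp663, trp1322, drs1 and mug1 were dropped from lists after values had been seen, because they name genes of other or uncertain function, and erh1, noc2, nug1, emg1 and aap1 were not matched. Named genes were the 15 largest called rises and falls among shared features, the 4 largest called differences between mutants in each direction, up to 3 shared members per list by size of change, the features at the edge of the condition and those of the 3 longest runs. Genes called within a list, and those named beside them such as put2 and SPNCRNA.564, were added after their values were seen. Pairing of wild type and cid14delta comes from the shared culture day in the labels; deviations of same-numbered arrays correlated at r = -0.00632 for this pair, 0.0413 for air1delta and wild type and 0.0159 for the mutants. Alternatives changed the scaling, dim features, blocks, variance model and arrays used. Promoter motifs were not analysed here.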

Additional observations from a re-analysis of the deposited data

Results flagged for a closer look

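In 5 of 120 named features 1 of the 4 mutant arrays stood apart from the others by Dixon's criterion, at a level that chance alone passes in about 5% of groups. They were SPNCRNA.108, with 10.00 on the first cid14delta array, gih35, with 8.36 on the first air1delta array, and dsh1, with 9.16 on the second cid14delta array. The others were pyp2, with 7.51 on the first air1delta array, and ssa1, with 11.82 on the first air1delta array.

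The mutants differed from each other, by the test of that difference, in 154 shared features. The largest were 1.81 log2 units for aes1, 1.66 for SPBC1271.07c, 1.19 for sqs2 and 1.06 for gud1, higher in air1delta. Those lower in air1delta were -1.56 for SPAC22A12.17c, -1.003 for SPAC29B12.11c, -0.90 for SPBC1289.14 and -0.85 for SPNCRNA.126. Array series differs between the mutants too, and its part cannot be told apart from that of the strain.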

How the results depend on the processing

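Against 111 called rises and 53 called falls, median centring gave 83 and 147, quantile normalization 19 and 11, leaving out features at or below the deletion floor 180 and 93, and a prior variance by level 164 and 115. Strain as a factor of 3, which takes the difference between the mutants out of the spread, gave 728 and 429. Array series as a block, which leaves cid14delta minus wild type, gave 262 and 212. The replicate block, which pairs wild type and cid14delta by day and air1delta by number only, gave 1 and 0. Culture day as a block was chosen after seeing the data. It gives each air1delta array a term of its own, so it leaves cid14delta minus wild type with few residual degrees of freedom. It gave 0 and 0 by limma, with 1368 features at an unadjusted p under 0.05, and does not test the pooled response. Leaving out 1 array gave 0 to 3 rises and 0 to 2 falls, with 710 to 1380 features at an unadjusted p under 0.05. Shared features numbered 817 higher and 1443 lower with centring, 905 and 1130 under quantile normalization, and 1919 and 1517 within the array series. Called differences between mutants, 547 over all and 154 among shared features, became 70 and 19 with the replicate block and 821 and 246 with the prior by level, and ran from 0 to 486 and 0 to 128 when 1 array was left out. Of 45 named calls, 41 were called with centring, 17 under quantile normalization, 43 within the array series and 45 with strain as a factor, and none changed direction. Of the uncalled features at the edge of the condition, mak2 became -0.0282 with centring and -0.0533 under quantile normalization, rrp2 -0.0363 and -0.110, and bmc1 -0.00492 and -0.105. The replicate block left 0 calls in every one of the 26 lists. Leaving out 1 array turned the sign of the list median for noncoding RNAs (-0.0098 without air1delta 2), histones (-0.010 without cid14delta 2), protein folding (-0.012 without wild type 2) and M-cell markers (0.22 without wild type 2). The cause of these changes was not tested, beyond fewer arrays where 1 was left out. Features at or below the deletion floor, 4.90, give bounds only.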

Other observations

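The called genes named here lie outside the lists and were chosen one by one after their values were seen, so they stand for no gene group. The gene rrp8, an rRNA methyltransferase in budding yeast, read 8.56 and 8.55 in air1delta, 8.47 and 8.57 in cid14delta, and 7.88 and 7.68 in wild type, a rise of 0.76 ± 0.08 (limma, adjusted p = 0.026). For dbp7, a helicase of large-subunit assembly in budding yeast, the values were 8.49 and 8.48 in air1delta, 8.38 and 8.45 in cid14delta, and 7.86 and 7.82 in wild type, a rise of 0.61 ± 0.07 (adjusted p = 0.026). Values for pxr1 were 10.36 and 10.19 in air1delta, 9.99 and 9.93 in cid14delta, and 9.28 and 9.02 in wild type, a rise of 0.96 ± 0.14 (adjusted p = 0.039). In each of these the mutant arrays lay at least 0.5 log2 units above both wild-type arrays.

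The glycerol-3-phosphate dehydrogenase gene gut2 rose by 0.80 ± 0.12 (adjusted p = 0.040). Falls outside the lists included mdh1, malate dehydrogenase, by 0.50 ± 0.09 (adjusted p = 0.044), atg8, of autophagy, by 0.49 ± 0.09 (adjusted p = 0.048), and krs1, a tRNA ligase, by 0.32 ± 0.06 (adjusted p = 0.049).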
